A study of Marchantia polymorpha with 12 samples.

Results

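The transcript response of wild-type Marchantia polymorpha, a liverwort, was described 2 h after wounding, across all genes that could be tested. All plants belonged to the accession Tak-1, which is male and wild type, with no transgene or mutation named in the labels. They had been subcultured for 3 weeks on 0.5-strength Gamborg's B5 medium with 1% agar, and each library came from its own pool of 6 to 8 plants. The tissue was apical thallus fragments, taken without gemma cups, although the tissue label reads Leaflets. In the wounded group the tissue was injured with tweezers and frozen 2 h later, and the mock group carries the same 2 h label. All libraries labelled Tak-1 were taken, which gave 3 mock and 3 wounded libraries, 6 of the 12 in the series. The other 6 come from a desaturase double mutant, named Mpfad3fad7 in the titles and Mpdes6fad5 in the growth protocol. They entered the fit to share the estimate of the spread and served for 1 test of the difference between genotypes.

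Wounding of plant tissue sets off calcium and reactive oxygen signals and the synthesis of oxylipins, which are oxidised fatty acids made by desaturases, lipoxygenases and enzymes of the CYP74 family. In Marchantia the hormone that binds the COI1 receptor is dinor-OPDA or a close relative, and its binding leads to the breakdown of the JAZ repressor. Released factors then change the transcription of defence and growth genes, among them genes of phenylpropanoid synthesis.

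Sequencing depth ran from 19832049 to 30821817 counts in the mock libraries and from 22860423 to 30330355 in the wounded ones. Of 20574 gene IDs, 13726 passed the filter on low counts, and the 6848 that did not held 0.0275% of the Tak-1 counts. A symbol is known for 18.5% of the tested genes, so the gene groups described here cover a minority of the transcripts. The first principal component of the 6 libraries held 85.2% of their variance, with mock libraries between -67.2 and -65.9 and wounded ones between 63.4 and 71.3. Transcripts of RBCS, a subunit of the carbon-fixing enzyme of green tissue, stood at 128, 192 and 158 CPM in mock and 194, 143 and 205 CPM after wounding (adjusted p = 0.323). Among antheridium and sperm markers, BNB and PRM had 0 counts in all 6 libraries, LC7 had 1 count in wounded library 3, and MpTUA5 was under 1 CPM in every library. The other 2 of that list were called higher, MpDUO1 from a low level (0.390 ± 0.0434 to 3.15 ± 0.357 CPM, log2 fold change 3.01 ± 0.25, adjusted p = 4.29e-07) and MpR2R3-MYB1 (MpFGMYB) by less (6.03 ± 0.951 to 9.04 ± 1.69 CPM, 0.58 ± 0.17, adjusted p = 0.011), a call lost without mock 2 (adjusted p = 0.0566). MpRKD, listed as an egg cell marker, fell (184 ± 8.03 to 137 ± 13.3 CPM, -0.43 ± 0.07, adjusted p = 2.39e-04). The plants are male, so its transcripts do not mark egg cells here. MpGCAM1, a marker of the gemma cups that the protocol left out, was present at 19.4, 58.9 and 25.9 CPM in mock and 28.1, 16.9 and 37.6 CPM after wounding, uneven between mock libraries and not called (adjusted p = 0.711). Of the other genes listed for gemma cups, MpGRAS2 fell, at 59.7, 68.3 and 61.6 CPM in mock and 31.3, 35.8 and 35.9 CPM after wounding (-0.88 ± 0.10, adjusted p = 7.83e-06), and MpKAI2A was not called. MpGRAS2 was matched to the list by its synonym MpDLP alone, and whether it marks gemma cups was not tested. MpNOP1, which is needed for air pores, rose (97.6 ± 3.69 to 220.0 ± 11.7 CPM, n = 3, log2 fold change 1.17 ± 0.07, adjusted p = 1.01e-08), and the rhizoid factor MpBHLH14 (MpRSL1) was at 14.6, 18.9 and 14.7 CPM in mock and 20.5, 12.4 and 17.5 CPM after wounding (adjusted p = 0.822). Of 5 oil body cell markers, MpC1HDZ rose (49.3 ± 5.97 to 168 ± 14.8 CPM, 1.76 ± 0.12, adjusted p = 8.03e-08), MpABCG1 and MpR2R3-MYB2 (MpMYB02) fell by 1.06 and 0.72 on the log2 scale, and MpERF13 and MpSYP12B were not called. In such whole-tissue samples, fewer cells of a type and less RNA per cell cannot be told apart, and the part of these markers in the results below was not tested.

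Of the genes tested, 54.9% were called changed after wounding, more of them by less than 2-fold (2067 rises and 2825 falls) than by more. At a Benjamini-Hochberg adjusted p under 0.05 (edgeR's quasi-likelihood test), 4112 genes were higher, which is 30.0% of those tested, and 3427 were lower, which is 25.0%. A change of at least 2-fold was reached by 2045 risen genes (14.9% of genes tested) and 602 fallen genes (4.39%). Beyond 4-fold the numbers were 986 (7.18%) and 89 (0.648%), and beyond 16-fold 289 and 5. The large changes were therefore mostly rises: the upper 5% of all log2 fold changes began at 2.57 and the lower 5% at -0.996. The 3 wounded libraries lay wholly above or wholly below the 3 mock libraries for 8479 genes (61.8%).

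The direction of small changes depends on how libraries are scaled. Counts were scaled with TMM, which assumes that most genes do not change, and the median gene then moved by 0.01 on the log2 scale. Upper-quartile scaling moved the median gene to -0.19, and the calls became 3122 higher and 5504 lower. Large rises were less touched, with 624 genes higher by 4- to 16-fold and 252 by at least 16-fold under upper-quartile scaling, against 697 and 289 under TMM. A change of under 0.19 on the log2 scale has no settled sign.

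Counted as a share of all transcripts, the response was a large reallocation. Genes called higher held 24.7 ± 0.255% (SD, n = 3) of the tested counts in mock libraries and 43.7 ± 0.729% in wounded ones. Genes called lower went from 40.5 ± 0.908% to 25.0 ± 0.672%, and genes not called from 34.8 ± 0.661% to 31.3 ± 0.451%. The genes were grouped by their own change, so these shares describe its weight and are no test of it. Most of the gained share came from moderate rises. The 2067 genes that rose less than 2-fold went from 18.7 to 23.3% of counts, the 1059 that rose 2- to 4-fold from 4.63 to 11.4%, and the 697 that rose 4- to 16-fold from 1.25 to 7.02%. The 289 genes that rose at least 16-fold went from 0.0754 to 2.05%. On the falling side, 2825 genes that fell less than 2-fold gave up most of the share (35.2 to 23.0%), and 513 that fell 2- to 4-fold went from 5.07 to 1.95%.

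**Figure D1:**
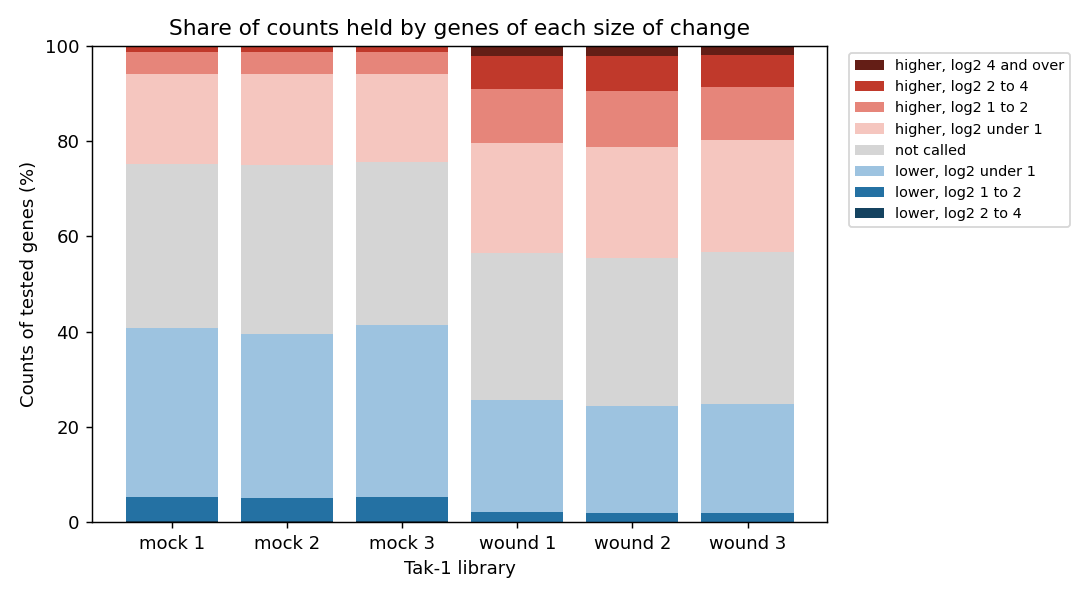
Share of the counts of tested genes (percent, vertical axis) held by genes grouped by direction and log2 size of change, in each of the 3 mock and 3 wounded Tak-1 libraries (1 stacked bar each). Genes called higher hold about 25% of each mock library and about 44% of each wounded library; the 5 genes lower by a log2 of 4 or more hold too little to be seen.

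The transcript pool also became less concentrated in its most abundant genes. In the mock libraries 1, 2 and 3, 789, 822 and 782 genes held 50% of the counts, against 890, 875 and 954 genes in the wounded libraries. The 100 most abundant genes of each library held 22.1, 21.3 and 22.3% of mock counts and 17.8, 18.1 and 17.0% of wounded counts. The groups did not overlap in either measure. The number of genes at 100 CPM or more was 2056, 2062 and 2061 in mock and 2489, 2540 and 2411 after wounding. This number depends on the scaling, since TMM-scaled CPM summed to 946979 to 962533 in mock and 1004770 to 1081710 in wounded libraries. A fixed bound is thus easier to pass after wounding, and how much of the gain comes from that was not tested.

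Single wounded libraries can be set against the mock mean for genes called by at least 2-fold. These were called from the same libraries, so some likeness between the libraries follows from the choice of genes. Over the 892 genes called higher by at least 2-fold from a mock level of at least 10 CPM, the median log2 ratio to the mock mean was 1.60, 1.64 and 1.49 in wounded libraries 1, 2 and 3. Over the 306 genes called lower by as much, it was -1.25, -1.32 and -1.27.

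Direction and size went with the starting level, taken as the mean CPM of the 3 mock libraries. Of 1558 tested genes under 1 CPM, 648 (41.6%) were called higher and 56 (3.59%) lower, and the median log2 change was 0.86. Of 3056 genes at 1 to 10 CPM, 774 (25.3%) were higher and 518 (17.0%) lower, with a median of -0.01. The 7055 genes at 10 to 100 CPM were nearly balanced, with 2113 higher and 2014 lower. At 100 to 1000 CPM the balance tipped, with 569 (29.0%) of 1965 genes higher and 783 (39.8%) lower. Of the 92 genes at 1000 CPM or more, 8 were higher and 56 (60.9%) lower, with a median of -0.40. The 8 became 4 without mock library 1 or 3 and 5 without wounded library 1 or 2. Upper-quartile scaling turned the balance to more falls in the 2 classes from 1 to 100 CPM (629 higher and 829 lower, then 1510 and 3392) and kept it in the other 3.

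A gene of the lowest class can pass the filter on low counts through the wounded libraries, so the share of rises there depends in part on that filter. The mock mean also enters both the class and the fold change. Classes were therefore also formed from the mutant mock libraries, which are no part of the Tak-1 contrast. Under 1 CPM there, 683 of 1704 genes were called higher in Tak-1 and 78 lower, and at 1000 CPM or more 9 of 105 were higher and 65 lower. With the mean of all 6 Tak-1 libraries the lowest class held 314 higher and 100 lower of 1266, and the highest class 21 and 46 of 95. That measure turned the balance at 100 to 1000 CPM, to 966 higher and 684 lower of 2261, so the excess of falls in that class depends on how the level is taken. The wounded Tak-1 mean is no starting level and enters the change from the other side. Classes by it held 174 higher and 175 lower of 1224 under 1 CPM, without an excess of rises. They held 1215 and 536 of 2372 at 100 to 1000 CPM, and 33 and 38 of 99 at 1000 CPM or more.

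**Figure D2:**
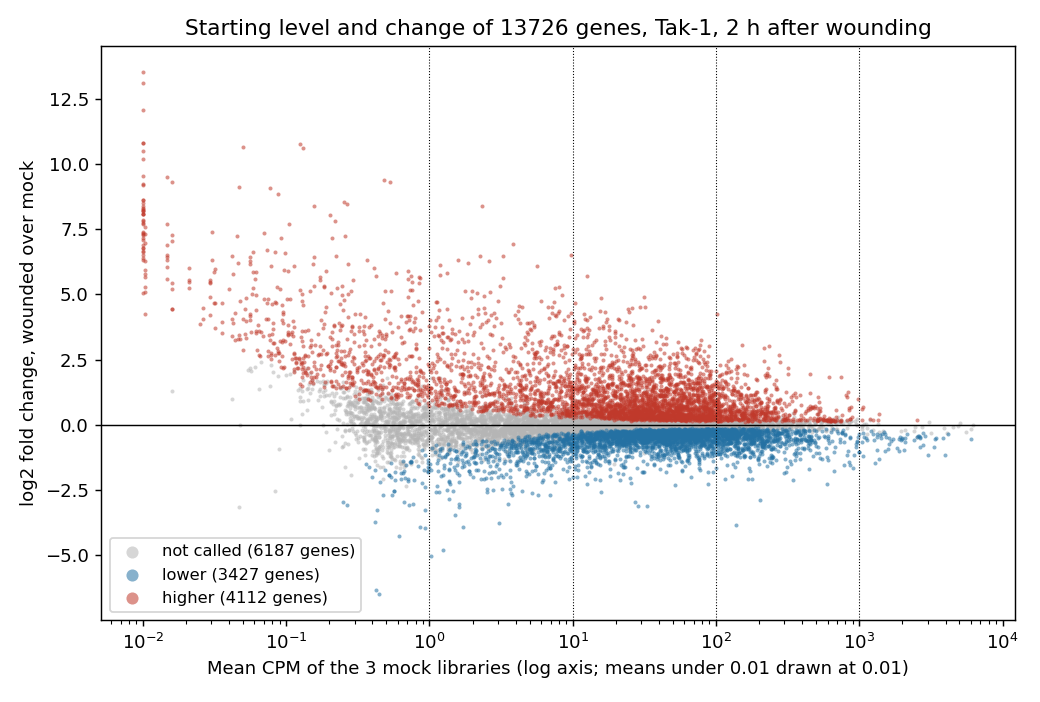
Log2 fold change of wounded over mock (vertical axis) against the mean CPM of the 3 mock libraries (horizontal log axis) for 13726 genes, coloured by call at adjusted p under 0.05, with dotted lines at the bounds of the level classes. The largest rises start under 1 CPM and the cloud narrows and tilts below 0 towards 1000 CPM; fitted values of genes with 0 mock counts, drawn at 0.01 CPM, depend on the fit's prior count and are no measure of size.

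**Figure D3:**
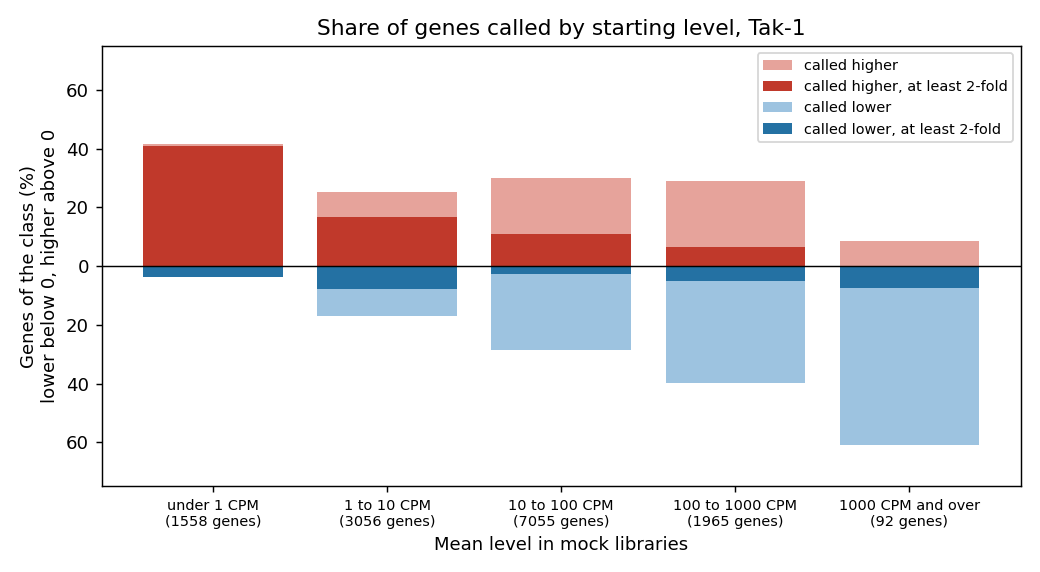
Percent of the genes of each class of mock level that were called higher (above 0) or lower (below 0), with those changed at least 2-fold in the darker colour. Called rises go from 41.6% of genes under 1 CPM to 8.70% at 1000 CPM or more, and called falls from 3.59 to 60.9%.

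Few genes crossed the scale from end to end. Of the 1558 genes that began under 1 CPM, 990 stayed there, 506 reached 1 to 10 CPM, 58 reached 10 to 100 CPM and 4 passed 100 CPM. Those 4 were the factors MpBHLH4, MpBHLH51 and MpERF21 and the dirigent protein MpDIR39. MpBHLH4 was at 0.483, 0.334 and 0.625 CPM in mock libraries 1, 2 and 3 and 326, 390.4 and 302 CPM in wounded libraries 1, 2 and 3. MpERF21 went from 0.176, 0 and 0.219 CPM to 252, 239.6 and 217 CPM. Both were at or near 0 in every mock library and above 200 CPM in every wounded one. In all, 41 tested genes had no count in any mock library, and all 41 were called higher, as the filter makes likely. Only 3 of them reached 10 CPM: MpPPO31, a polyphenol oxidase, and Mp1g09220 and Mp5g07480, which have no symbol. Against a floor of 3 counts over the 3 mock libraries (0.0396 CPM), Mp5g07480 was at least 1521-fold higher, with 60.1, 61.5 and 59.1 CPM after wounding, and Mp1g09220 at least 549-fold higher. The dirigent gene MpDIR61 had 1 mock count and 12.1, 14.9 and 13.2 CPM after wounding, a ratio of 1007 with a 95% exact counting interval of 180.3 to 39808. In the other direction, no gene fell from 10 CPM or more to under 1 CPM. The steepest fall from at least 10 CPM was that of Mp7g05640, without a symbol, at 166, 98.6 and 151 CPM in mock libraries 1, 2 and 3 and 10.4, 9.43 and 9.19 CPM in wounded libraries 1, 2 and 3 (log2 fold change -3.84 ± 0.20, adjusted p = 4.36e-09). The 5 genes called lower by more than 16-fold (Mp2g09000, MpPOD19, MpGH16.28, MpPOD78 and Mp5g20220, named after their values were seen) had mock means of 0.422 to 1.25 CPM, and their fall rests on few counts. Without 1 library the number of such genes ran from 4 to 16.

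**Figure D4:**
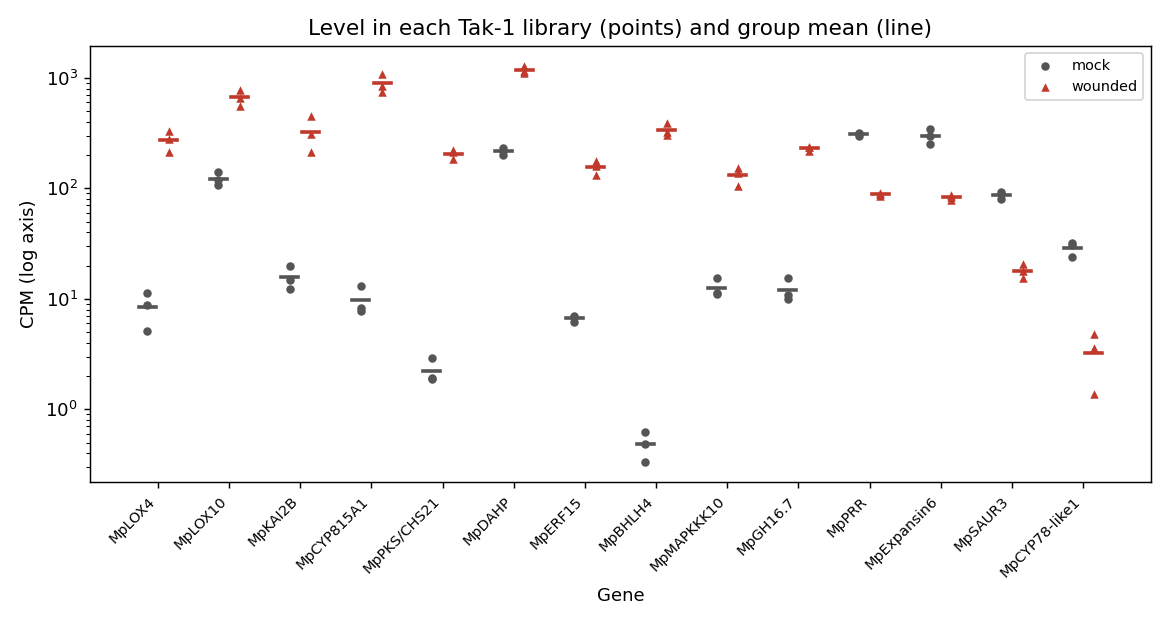
CPM (log axis) of 14 genes in each of the 3 mock (grey circles) and 3 wounded (red triangles) Tak-1 libraries, with a line at each group mean. The 14 were taken from genes named for their change, for which groups without overlap were a condition (61.8% of all genes tested have none). Of these, 10 genes stand higher after wounding, and MpPRR, MpExpansin6, MpSAUR3 and MpCYP78-like1 stand lower.

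Lipoxygenases, which add oxygen to polyunsaturated fatty acids, split into a rising and a falling set. Of 17 tested genes for oxylipin synthesis, 8 (47.1%) rose, 3 (17.6%) fell and 6 did not pass the test, beside 30.0% higher and 25.0% lower over all genes. The median log2 change of the list was 0.79 (0.01 over all genes tested). Its summed level went from 1430.3 ± 42.6 to 5194 ± 419 CPM, 3 libraries each. The largest rise was that of MpLOX4, with 8.87, 5.11 and 11.4 CPM in mock libraries 1, 2 and 3 and 212, 333 and 279 CPM in wounded libraries 1, 2 and 3. All wounded libraries lay above all mock libraries (4.99 ± 0.29, adjusted p = 1.16e-08). MpLOX1 followed with 8.04, 6.97 and 8.75 CPM in mock and 206, 128 and 133 CPM after wounding (4.29 ± 0.31, adjusted p = 1.15e-07). MpLOX10, already well expressed, stood at 107, 119 and 140.2 CPM in mock and 559.9, 772 and 664 CPM after wounding (2.44 ± 0.16, adjusted p = 4.70e-08), again without overlap. MpLOX8 (2.58 ± 0.28), MpLOX6 (1.87 ± 0.43) and MpLOX3 (1.41 ± 0.34) rose from lower levels, of 5.33, 1.91 and 11.4 CPM on average. MpLOX2 and MpCYP74N2 (MpAOS2), an allene oxide synthase of the branch that leads to jasmonate precursors, rose by 3.02 and 2.39 on the log2 scale.

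The 3 that fell were MpLOX12, MpLOX13 and MpLOX16. MpLOX16 stood at 47.8, 24.5 and 48.9 CPM in mock and 11.5, 12.2 and 13.4 CPM after wounding (-1.71 ± 0.31, adjusted p = 3.74e-04), and MpLOX12 at 12.4, 7.26 and 12.4 CPM in mock and 1.61, 2.32 and 4.13 CPM after wounding (-2.01 ± 0.36, adjusted p = 3.94e-04). MpLOX13 fell from a lower level (3.65 ± 0.931 to 0.910 ± 0.402 CPM, -2.02 ± 0.43, adjusted p = 0.00143). MpLOX14, with 557, 638 and 570.1 CPM in mock and 591, 469.5 and 452 CPM after wounding, was not called (adjusted p = 0.0669), a call that was gained without wounded 1 (adjusted p = 0.00236), nor was MpCYP74N1 (MpAOS1), with 89.5, 86.8 and 89.6 CPM in mock and 81.2, 106 and 96.2 CPM after wounding (adjusted p = 0.578). The remaining 4 not called were MpLOX5, MpLOX7, MpLOX9 and MpLOX11, all between 2.14 and 17.3 CPM in every library. A call of MpLOX5 was gained without mock 2 (adjusted p = 0.00486). Reads of similar lipoxygenases may have been shared in counting, so the values of single members carry that uncertainty.

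Fatty acid desaturases supply the polyunsaturated substrates. Of 14 tested members 8 (57.1%) rose and 3 (21.4%) fell, beside 30.0 and 25.0% over all genes, and 3 were not called. The median of the members was 0.32, and none of their changes reached 4-fold. The steepest rise was that of MpFAD4, at 31.6, 34.7 and 31.3 CPM in mock and 68.8, 69.2 and 69.6 CPM after wounding (1.09 ± 0.11, adjusted p = 1.76e-06). MpFAD6 (27.8 ± 9.12 to 58.2 ± 12.7 CPM, 1.07 ± 0.27, adjusted p = 0.00436) and MpFAD8 (63.8 ± 11.3 to 122 ± 10.03 CPM, 0.94 ± 0.22, adjusted p = 0.00267) rose by a like amount with a wider spread. MpFAD11 rose from 525 ± 38.3 to 955 ± 103 CPM (0.86 ± 0.10), and MpFAD5 and MpDES5 (MpFAD7) rose by 0.66 ± 0.08 and 0.48 ± 0.05. MpFAD10 (0.27 ± 0.08, adjusted p = 0.0153) and MpFAD13 (0.37 ± 0.13, adjusted p = 0.0299) passed the test with small changes, and both lost the call under upper-quartile scaling. The call of MpFAD10 was lost without mock 2 or wounded 2 (adjusted p = 0.071 to 0.0725), and that of MpFAD13 lost without mock 1, mock 2, mock 3, wounded 1 or wounded 3 (adjusted p = 0.0512 to 0.13). MpDES6 (MpFAD12) fell by 1.08, MpFAD9 by 0.97 and MpFAD1 by 0.60 on the log2 scale. MpFAD9 stood at 54.6, 66.1 and 62.2 CPM in mock and 34.2, 32.5 and 26.7 CPM after wounding, so its groups did not overlap. MpFAD2, MpFAD3 and MpFAD14 were not called.

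In jasmonate signalling, the repressor gene MpJAZ rose and the receptor gene fell. MpJAZ was at 26.98, 28.3 and 30.6 CPM in mock and 214, 247 and 199 CPM after wounding (2.94 ± 0.12, adjusted p = 6.73e-10). MpNINJA, the adaptor that links JAZ to a corepressor, rose by 0.34 ± 0.05 with little spread between libraries, at 111, 111 and 109 CPM in mock and 139, 139.7 and 141 CPM after wounding. MpCOI1 (-0.58 ± 0.05) and the corepressor MpTPL (-0.62 ± 0.06) fell, MpTPL from 175 ± 7.97 to 114 ± 6.25 CPM. MpJAZ lies beside Mp6g06240 and Mp6g06250, and all 3 neighbours rose at least 4-fold.

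**Figure D5:**
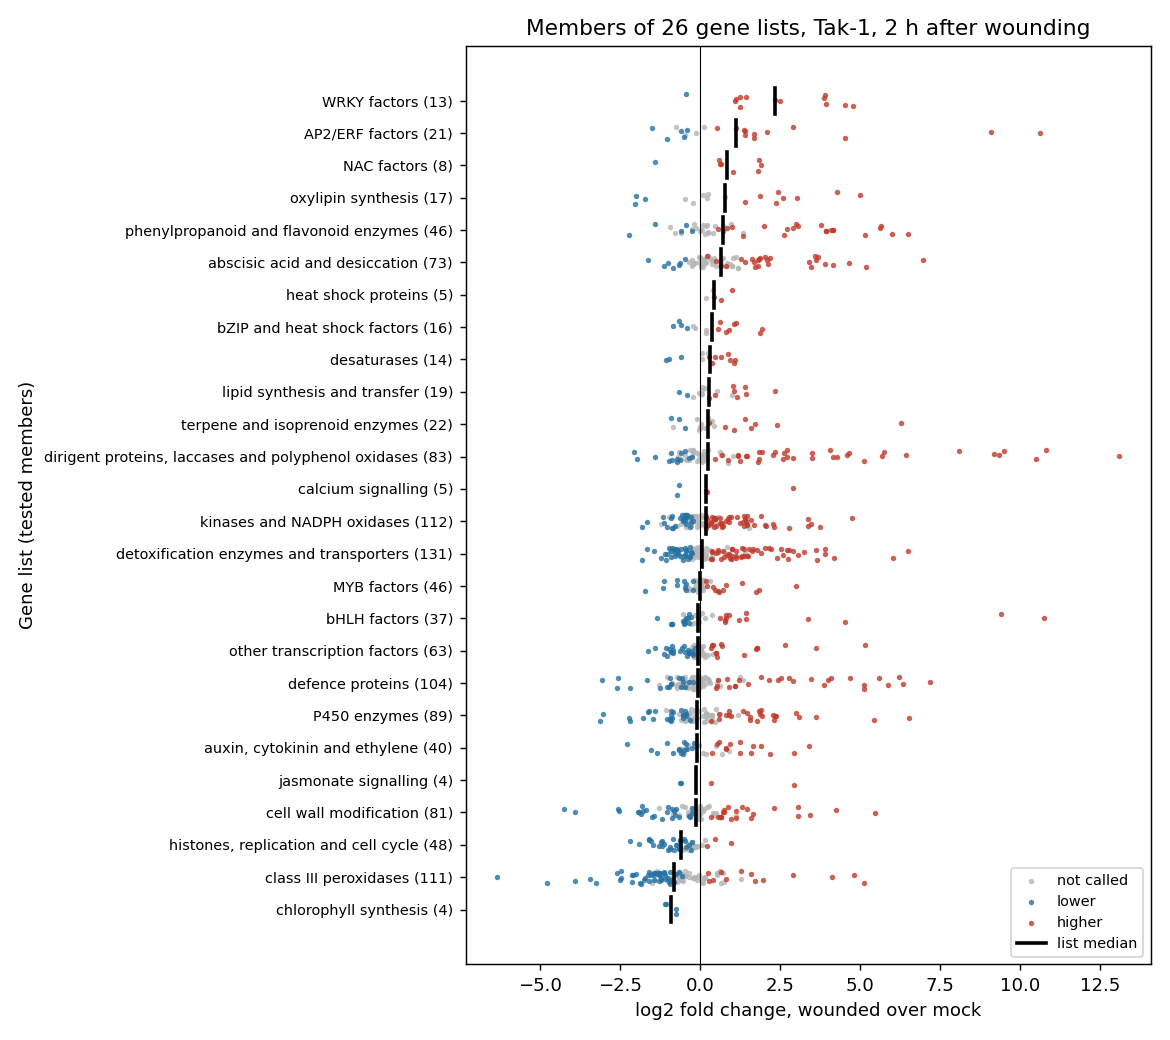
Log2 fold change of wounded over mock (horizontal axis) of the tested members of 26 gene lists defined by symbol (1 point a gene, coloured by call), sorted by list median (black line). WRKY factors have the highest median, 2.35, and chlorophyll synthesis the lowest, -0.90; some lists with medians near 0 hold members that rose by more than 5.

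Transcription factor families differed in how many members moved and which way, beside 30.0% higher and 25.0% lower over all genes tested. Of 13 tested WRKY factors, a family known in angiosperms for defence regulation, 12 rose and 1 fell (MpWRKY8, named after its value was seen, -0.43 ± 0.17, adjusted p = 0.0487), a call lost without mock 1, mock 2, mock 3, wounded 1 or wounded 3 (adjusted p = 0.0684 to 0.154). MpWRKY10 stood at 15.8, 17.5 and 17.6 CPM in mock libraries 1, 2 and 3 and 243, 318 and 225 CPM in wounded libraries 1, 2 and 3 (3.95 ± 0.19, adjusted p = 2.23e-09). MpWRKY14, MpWRKY9 and MpWRKY12 rose by 3.89, 2.49 and 2.35. MpWRKY11, present at 821, 809 and 862 CPM in mock and 1949, 2289 and 1666 CPM after wounding, rose by 1.24 and added the most transcripts of the family. Of 8 NAC factors 7 rose and 1 fell (MpNAC6, named after its value was seen, under 1 CPM in every library), a call lost without mock 1, mock 2, wounded 1 or wounded 2 (adjusted p = 0.0624 to 0.102). MpNAC4 (107 ± 4.96 to 398 ± 76.6 CPM, 1.89 ± 0.13), MpNAC7 (36.9 ± 1.07 to 133 ± 20.5 CPM, 1.85 ± 0.17) and MpNAC3 (222 ± 10.3 to 787 ± 53.6 CPM, 1.83 ± 0.08) rose to a like degree.

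Of 21 AP2/ERF factors 12 (57.1%) rose and 5 (23.8%) fell, beside 30.0 and 25.0% over all genes. The other 4 were not called, and the median of the family was 1.14. Beside MpERF21, MpERF9 rose from 0.0764 ± 0.025 to 45.8 ± 5.07 CPM (9.09 ± 0.18, adjusted p = 7.73e-12). Its mock level rests on 6 counts in all, so the size of this rise is less certain than its SE. MpERF15 stood at 6.19, 6.97 and 6.90 CPM in mock and 159, 176 and 132 CPM after wounding (4.54 ± 0.21, adjusted p = 1.98e-09) and MpERF7 at 13.1, 9.65 and 14.5 CPM in mock and 89.5, 104 and 85.3 CPM after wounding (2.90 ± 0.19, adjusted p = 4.79e-08). MpERF20 (MpLAXR), which promotes stem cell formation during regeneration in Marchantia and was named after its value was seen, stood at 0.747, 1.34 and 0.9995 CPM in mock and 3.50, 2.74 and 1.85 CPM after wounding (1.40 ± 0.34, adjusted p = 0.00377). The 5 that fell were MpAP2B3-1, MpAP2L1, MpAP2L2, MpERF14 and MpERF16, named after their values were seen, by 0.40 to 1.50 on the log2 scale. The call of MpAP2B3-1 was lost without mock 1, mock 2, wounded 2 or wounded 3 (adjusted p = 0.0634 to 0.157) and that of MpERF16 lost without mock 1, mock 2, wounded 1 or wounded 2 (adjusted p = 0.0534 to 0.201).

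The bHLH family moved both ways, with 13 (35.1%) of 37 tested members higher, 14 (37.8%) lower and a median of -0.05. All genes tested had 30.0% higher and 25.0% lower. Upper-quartile scaling gave 13 and 18 in the family. Its risen members included very large changes. MpBHLH2 stood at 7.91, 5.35 and 8.31 CPM in mock and 184, 171 and 143 CPM after wounding (4.52 ± 0.21, adjusted p = 1.59e-09), and MpBHLH3 at 9.23, 7.98 and 10.9 CPM in mock and 85.5, 109 and 100.3 CPM after wounding (3.38 ± 0.17, adjusted p = 3.31e-09). MpBHLH2, MpBHLH3 and MpBHLH4 lie on chromosome 2 within a run of 6 neighbouring tested genes that all rose at least 4-fold. On the falling side MpBHLH15 went from 354 ± 18.9 to 140.2 ± 6.46 CPM (-1.34 ± 0.08) and MpBHLH6 (MpPIF), the phytochrome-interacting factor, from 604 ± 24.5 to 428 ± 13.8 CPM (-0.50 ± 0.09).

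Of 46 MYB factors 12 (26.1%) rose, 11 (23.9%) fell and 23 were not called, near the 30.0% higher and 25.0% lower over all genes. Upper-quartile scaling gave 9 and 20 and moved the median from 0.00 to -0.19. MpR2R3-MYB20 (28.4 ± 2.50 to 95.9 ± 14.8 CPM, 1.76 ± 0.12) and Mp1R-MYB16 (32.9 ± 1.99 to 81.1 ± 9.29 CPM, 1.30 ± 0.09) rose. MpRR-MYB2 (77.8 ± 3.62 to 23.5 ± 1.90 CPM, -1.73 ± 0.09) and MpR2R3-MYB21 (42.1 ± 4.30 to 19.1 ± 3.17 CPM, -1.14 ± 0.14) fell. Of 16 bZIP and heat shock factors 8 (50%) rose, by up to 1.94 in MpBZIP3 and 1.87 in MpBZIP6, and 4 (25%) fell (MpBZIP8, MpBZIP10, MpABI5A and MpHSF1, named after their values were seen). MpHSF1 fell by 0.85 on the log2 scale.

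Among 63 other transcription factors (homeodomain-leucine zipper, GRAS, zinc finger, GARP, LBD, TCP, MADS and auxin response factors) falls outnumbered rises, at 25 (39.7%) against 15 (23.8%). All genes tested had 25.0% falls and 30.0% rises. Upper-quartile scaling gave 31 falls and 10 rises in this group. The risen ones moved further. MpGRAS7 (MpRAM) stood at 0.483, 1.15 and 0.562 CPM in mock and 28.8, 25.9 and 21.5 CPM after wounding (5.15 ± 0.34, adjusted p = 4.53e-08), MpGRAS4 from 12.99 ± 0.876 to 161 ± 24.2 CPM (3.63 ± 0.12), MpMADS1 from 34.5 ± 2.49 to 218 ± 27.9 CPM (2.66 ± 0.12) and MpC2H2-13 from 28.5 ± 1.96 to 98.8 ± 16.2 CPM (1.79 ± 0.12). MpGRAS10 lost the most CPM of this group, from 455 ± 19.8 to 232 ± 11.1 CPM (-0.97 ± 0.06).

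Calcium and kinase genes rose in part. The calmodulin-like gene MpCML42 stood at 37.5, 41.4 and 42.7 CPM in mock and 281, 365 and 264 CPM after wounding (2.90 ± 0.14, adjusted p = 2.02e-09). The calcium sensor MpCBL-B (-0.66 ± 0.07) and the kinase MpCIPK-B (-0.72 ± 0.07), which belong to families that work as pairs, fell by like amounts. MpCIPK-A (0.21 ± 0.08, adjusted p = 0.0347) and MpCBL-A (0.18 ± 0.06, adjusted p = 0.0236, named after its value was seen) were higher by less than the shift between scalings or by about as much, and upper-quartile scaling put MpCBL-A at -0.01, not called. The call of MpCIPK-A was lost without mock 1, mock 2, mock 3 or wounded 2 (adjusted p = 0.0678 to 0.164) and that of MpCBL-A lost without mock 2, mock 3, wounded 1 or wounded 2 (adjusted p = 0.0695 to 0.0947). Of 112 kinase and NADPH oxidase genes 51 (45.5%) rose and 25 (22.3%) fell under TMM, beside 30.0 and 25.0% over all genes. Under upper-quartile scaling 39 of the list rose and 38 fell, and its median moved from 0.18 to -0.01. MpMAPKKK10, of the first tier of MAP kinase cascades, stood at 11.2, 11.03 and 15.4 CPM in mock libraries 1, 2 and 3 and 137, 153 and 106 CPM in wounded libraries 1, 2 and 3 (3.39 ± 0.21, adjusted p = 2.24e-08). The receptor-like kinase genes MpRLK-Pelle_L-LEC4 (0.827 ± 0.204 to 22.99 ± 3.04 CPM, 4.75 ± 0.20), MpRLK-Pelle_RKF3c (3.47 ± 0.24) and MpRLK-Pelle_L-LEC28 (2.79 ± 0.16) rose, and MpRLK-Pelle_WAK_LRK10L-3 fell from 95.5 ± 3.45 to 27.2 ± 4.41 CPM (-1.81 ± 0.10).

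Transcripts of the route from primary metabolism to phenolic compounds rose at several steps. MpDAHP, for the enzyme that commits carbon to the shikimate pathway and so to phenylalanine, stood at 199, 218 and 234 CPM in mock libraries 1, 2 and 3 and 1147, 1289 and 1096 CPM in wounded libraries 1, 2 and 3 (2.44 ± 0.11, adjusted p = 1.53e-09). Mp4CL2, a 4-coumarate-CoA ligase, stood at 159, 149 and 149 CPM in mock and 1157, 1467 and 1224 CPM after wounding (3.08 ± 0.12, adjusted p = 4.14e-10). Of 46 tested phenylpropanoid and flavonoid genes 22 (47.8%) rose, 17 of them at least 4-fold, 5 (10.9%) fell and 19 were not called, with a median of 0.71. Over all genes 30.0% rose, 7.18% at least 4-fold, and 25.0% fell. The summed level of the list went from 1534 ± 66.8 to 4419 ± 176 CPM. Among polyketide synthase genes of the chalcone synthase type, MpPKS/CHS21 stood at 1.89, 1.91 and 2.90 CPM in mock and 223, 211 and 185 CPM after wounding (6.49 ± 0.29, adjusted p = 1.37e-09), and MpPKS/CHS18 at 3.03, 3.34 and 3.37 CPM in mock and 173, 151 and 161 CPM after wounding (5.63 ± 0.26, adjusted p = 1.92e-09). MpPAL7, for phenylalanine ammonia-lyase, the entry enzyme, rose from 0.408 ± 0.0874 to 25.8 ± 8.60 CPM (6.00 ± 0.50), and its neighbour MpPKS/CHS11 from 0.850 ± 0.583 to 43.4 ± 11.2 CPM (5.66 ± 0.51). These last stand in a run of 6 neighbouring genes on chromosome 4, from MpPAL7 to MpPKS/CHS13, in which lyase and synthase genes alternate and all rose at least 4-fold. The members that fell (MpPKS/CHS-like1, MpPKS/CHS6, MpPKS/CHS7, MpPKS/CHS14 and MpPKS/CHS-like3, named after their values were seen) did so by 0.24 to 2.21 on the log2 scale, and the call of MpPKS/CHS14 was lost without mock 1, mock 2, mock 3, wounded 2 or wounded 3 (adjusted p = 0.0565 to 0.155).

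Dirigent proteins, laccases and polyphenol oxidases act on phenolic compounds. Their genes rose in 37 (44.6%) of 83 tested cases and fell in 13 (15.7%), beside 30.0 and 25.0% over all genes. The median was 0.24, but the summed level rose, from 3219 ± 74.4 to 10311 ± 711 CPM. MpPPO42 gained the most CPM of all genes with a symbol, at 784, 687 and 755 CPM in mock and 2629, 3002 and 2400.4 CPM after wounding (1.85 ± 0.10, adjusted p = 8.80e-09). MpDIR17 stood at 628, 586 and 641 CPM in mock and 2112, 2496 and 2033 CPM after wounding (1.84 ± 0.11, adjusted p = 1.82e-08). MpPPO22 rose by 4.27 and MpPPO52 from 0.157 ± 0.245 to 13.3 ± 1.40 CPM (6.45 ± 0.66). A run of 5 neighbouring dirigent genes on chromosome 5, from MpDIR65 to MpDIR39, all rose at least 4-fold, with fitted changes from 9.19 upwards.

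Class III peroxidases, secreted enzymes of the cell wall, went mostly the other way by number: 13 (11.7%) of 111 rose and 48 (43.2%) fell, with a median of -0.81. Among all genes tested 30.0% rose and 25.0% fell. By summed level the family nevertheless rose, from 1625 ± 109 to 2958 ± 173 CPM. That sum turned on a few members. MpPOD164 alone stood at 274, 357 and 319 CPM in mock and 1339, 1268 and 1076 CPM after wounding (1.96 ± 0.14, adjusted p = 1.05e-07). MpPOD89 stood at 2.15, 1.15 and 1.75 CPM in mock and 39.4, 20.6 and 28.01 CPM after wounding (4.11 ± 0.31, adjusted p = 1.79e-07) and MpPOD161 rose by 5.13, while MpPOD47 fell from 10.9 ± 3.67 to 3.33 ± 0.926 CPM (-1.72 ± 0.26). Of the 48 that fell, 38 had under 10 CPM in mock, and their median was 3.64 CPM, against 3.25 CPM over all peroxidases tested.

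Of 89 tested P450 genes 25 (28.1%) were higher and 25 (28.1%) lower, near the 30.0 and 25.0% over all genes, and upper-quartile scaling gave 23 and 34. Their summed level went from 2155 ± 74.7 to 5634 ± 506 CPM. MpCYP815A1 alone gained 881 CPM on average, at 7.69, 13.1 and 8.34 CPM in mock libraries 1, 2 and 3 and 837, 1088 and 746 CPM in wounded libraries 1, 2 and 3 (6.53 ± 0.29, adjusted p = 1.44e-09). MpCYP94-like stood at 1.01, 0.860 and 0.656 CPM in mock and 34.1, 35.9 and 39.2 CPM after wounding (5.45 ± 0.22, adjusted p = 5.78e-10), and its family oxidises and inactivates jasmonoyl-isoleucine in angiosperms. MpCYP707A, whose family inactivates abscisic acid, stood at 3.51, 6.50 and 5.43 CPM in mock and 46.03, 79.7 and 64.1 CPM after wounding (3.62 ± 0.29, adjusted p = 2.41e-07). MpCYP78-like1 stood at 31.9, 23.7 and 30.4 CPM in mock and 4.75, 1.37 and 3.56 CPM after wounding (-3.13 ± 0.39, adjusted p = 1.63e-05), the steepest fall of genes with a symbol and at least 10 CPM in mock, and MpCYP829-like12 fell from 25.6 ± 4.54 to 5.47 ± 1.30 CPM (-2.22 ± 0.17).

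Detoxification enzymes and transporters (glutathione transferases, glycosyltransferases, MATE and ABC transporters) rose in 51 (38.9%) of 131 cases, 19 of them at least 4-fold, and fell in 32 (24.4%), none by 4-fold. Over all genes 30.0% rose, 7.18% at least 4-fold, and 25.0% fell. Upper-quartile scaling gave 44 higher and 44 lower in this list. MpGST38 stood at 0.308, 0.239 and 0.125 CPM in mock and 21.5, 16.4 and 21.1 CPM after wounding (6.49 ± 0.29, adjusted p = 1.28e-09), and the near neighbours MpGST29 (4.79 ± 0.394 to 72.3 ± 12.9 CPM, 3.91 ± 0.22) and MpGST30 (4.29 ± 0.590 to 64.3 ± 12.7 CPM, 3.89 ± 0.19) rose together. MpABCG11 rose by 4.19 ± 0.41 and MpUGT36 fell by 1.80.

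Among 104 defence protein genes (PR proteins, cupins and glycoside hydrolases) 27 rose, 18 fell and 59 were not called, with a median of -0.07. The 26.0% higher and 17.3% lower compare with 30.0 and 25.0% over all genes, and upper-quartile scaling turned the balance, to 26 and 29. The proteinase inhibitor genes MpPR6b, at 0.264, 0.143 and 0.687 CPM in mock and 39.4, 28.7 and 30.6 CPM after wounding (6.34 ± 0.49, adjusted p = 1.98e-07), and MpPR6a (0.493 ± 0.240 to 17.1 ± 3.96 CPM, 5.14 ± 0.44) rose from under 1 CPM. The germin-like genes MpPR15c (0.0924 ± 0.00400 to 14.2 ± 4.38 CPM) and MpPR15h (0.791 ± 0.148 to 13.7 ± 4.66 CPM) did so as well, MpPR15c within a run of 4 risen neighbours. Of 5 heat shock protein genes, the HSP90 chaperones MpHSP90-3 (196 ± 21.6 to 394 ± 11.5 CPM, 1.01 ± 0.11), MpHSP90-1 (0.65 ± 0.06) and MpHSP90-4 (0.45 ± 0.07) rose and 2 members were not called.

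Some isoprenoid and lipid genes rose. MpHMG, for HMG-CoA reductase of the mevalonate pathway, stood at 203, 162 and 211 CPM in mock and 587, 692 and 610.4 CPM after wounding (1.71 ± 0.10, adjusted p = 1.85e-08), and MpSQS1, for squalene synthase, at 84.6, 89.3 and 93.96 CPM in mock and 196, 187 and 178 CPM after wounding (1.07 ± 0.07, adjusted p = 5.96e-08). Of 22 terpene and isoprenoid genes 8 (36.4%) rose, 2 of them at least 4-fold, and 3 (13.6%) fell (MpTPS3, MpMTPSL1 and MpDXS2, named after their values were seen). Over all genes tested 30.0% rose, 7.18% at least 4-fold, and 25.0% fell, so the share of rises is near that of all genes. Among the risen were MpMTPSL-like (1.59 ± 0.22) and MpFTPSL2 (MpMTPSL7, 1.40 ± 0.19). The call of MpTPS3 was lost without mock 1 or wounded 3 (adjusted p = 0.11 to 0.132) and that of MpDXS2 lost without wounded 2 (adjusted p = 0.0541). Of 19 genes for lipid synthesis and transfer 8 (42.1%) rose and 2 (10.5%) fell (MpGPAT6c and MpLTPG1, named after their values were seen), beside the same 30.0 and 25.0% over all genes. MpMGDG, for synthesis of the main galactolipid of plastid membranes, stood at 116, 104 and 119.8 CPM in mock and 205, 256 and 246 CPM after wounding (1.05 ± 0.08, adjusted p = 2.63e-07). MpGPAT6b, of the acyltransferase family that makes cutin precursors, stood at 36.3, 40.2 and 38.5 CPM in mock and 105, 95.2 and 101 CPM after wounding (1.39 ± 0.07, adjusted p = 2.22e-09), while MpGPAT6c fell by 0.42. The lipid transfer genes MpLTP-like65 and MpLTP-like68 rose by 1.43 and 1.16.

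Hormone genes other than those of jasmonates moved both ways. Of 40 auxin, cytokinin and ethylene genes 14 (35.0%) rose and 15 (37.5%) fell, beside 30.0 and 25.0% over all genes tested. Upper-quartile scaling gave 12 and 19 in this list. MpGH3A, of the family that conjugates hormones to amino acids, stood at 42.3, 38.5 and 42.7 CPM in mock and 384, 466 and 461 CPM after wounding (3.41 ± 0.14, adjusted p = 6.47e-10), and the auxin efflux gene MpPIN3 at 23.7, 31.9 and 35.8 CPM in mock and 157, 130.5 and 126 CPM after wounding (2.18 ± 0.14, adjusted p = 2.46e-08). In the SAUR family of small auxin-related genes, MpSAUR10 rose from 7.35 ± 1.27 to 27.5 ± 4.16 CPM (1.91 ± 0.19) and MpSAUR3 fell, at 89.7, 80.6 and 92.2 CPM in mock and 15.5, 20.7 and 17.7 CPM after wounding (-2.29 ± 0.17, adjusted p = 1.05e-07). MpKAI2B, a paralog of the karrikin receptor MpKAI2A, stood at 12.2, 14.9 and 19.7 CPM in mock libraries 1, 2 and 3 and 307, 449 and 212 CPM in wounded libraries 1, 2 and 3 (4.36 ± 0.28, adjusted p = 3.88e-08), and MpKAI2A at 52.6, 51.7 and 53.6 CPM in mock and 46.6, 48.6 and 54.9 CPM after wounding (adjusted p = 0.374). Of 73 abscisic acid and desiccation genes 27 (37.0%) rose, 14 of them at least 4-fold, and 7 (9.59%) fell. Over all genes 30.0% rose, 7.18% at least 4-fold, and 25.0% fell. MpDHN2, a dehydrin gene, rose by 4.17, and the late embryogenesis abundant genes MpLEA-like59 (0.757 ± 0.124 to 27.7 ± 2.04 CPM, 5.17 ± 0.18) and MpLEA-like42 (0.473 ± 0.106 to 12.4 ± 2.04 CPM, 4.67 ± 0.41) from under 1 CPM. The summed level of this list was uneven in mock, at 2740, 3898 and 2716 CPM in libraries 1, 2 and 3, and 5321, 5510 and 5184 CPM after wounding.

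Of 81 tested cell wall genes 22 (27.2%) were higher and 25 (30.9%) lower, near the 30.0 and 25.0% over all genes, and upper-quartile scaling gave 20 and 31. MpGH16.7, of the family of xyloglucan endotransglucosylases, stood at 9.97, 10.9 and 15.3 CPM in mock and 219, 237 and 238 CPM after wounding (4.25 ± 0.14, adjusted p = 2.08e-10), and MpGH16.8 beside it at 21.5, 19.2 and 24.6 CPM in mock and 219.5, 235 and 249.7 CPM after wounding (3.43 ± 0.11, adjusted p = 1.40e-10). MpCE8.8, of the pectin methylesterase family, went from 0.759 ± 0.204 to 33.8 ± 4.61 CPM (5.46 ± 0.18) and the expansin-like MpEXL5 from 16.8 ± 1.59 to 141 ± 21.9 CPM (3.06 ± 0.17). MpExpansin6, of the proteins that loosen walls during growth, stood at 299, 249.8 and 343 CPM in mock libraries 1, 2 and 3 and 79.03, 86.3 and 83.8 CPM in wounded libraries 1, 2 and 3 (-1.84 ± 0.14, adjusted p = 1.60e-07). The pectate lyase gene MpPL1.3 stood at 124, 98.4 and 163 CPM in mock and 31.9, 33.8 and 32.01 CPM after wounding (-1.98 ± 0.16, adjusted p = 2.50e-07). In both fallen genes every wounded library was lower than every mock library, which the rule for naming them required (61.8% of all genes tested had no overlap).

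Most tested genes of DNA replication and chromatin fell. Of 48 tested histone, replication and cell cycle genes 30 (62.5%) fell, 15 were not called and 3 (6.25%) rose (MpCDC5, MpCYCD_2 and MpCDC25_1, named after their values were seen), with a median of -0.58. Among all genes tested 25.0% fell and 30.0% rose. Of the 30 falls, 12 were at least 2-fold and 1 at least 4-fold. MpCYCD_1, a D-type cyclin, stood at 11.6, 11.5 and 14.6 CPM in mock and 5.17, 3.17 and 3.96 CPM after wounding (-1.61 ± 0.19, adjusted p = 1.06e-05), whereas MpCYCD_2 stood at 25.2, 16.6 and 22.3 CPM in mock and 26.5, 24.4 and 37.2 CPM after wounding (0.45 ± 0.18, adjusted p = 0.0477). The call of MpCYCD_2 was lost without mock 2, mock 3 or wounded 3 (adjusted p = 0.0798 to 0.242) and that of MpCDC5 lost without mock 1, mock 3 or wounded 2 (adjusted p = 0.0587 to 0.0859). MpMCM2, a subunit of the replicative helicase, stood at 10.6, 9.65 and 12.5 CPM in mock and 3.84, 2.40 and 5.10 CPM after wounding (-1.53 ± 0.21, adjusted p = 4.85e-05). The histone genes MpH3.1a (16.4 ± 2.93 to 7.09 ± 1.80 CPM, -1.21 ± 0.21) and MpH2A.W.2 (102 ± 7.41 to 46.2 ± 3.53 CPM, -1.13 ± 0.08) fell as well. All 4 genes matched by the chlorophyll synthesis list fell. All 4 concern 1 enzyme, the magnesium chelatase, so other steps of the pathway are not covered. MpGUN4, which binds the magnesium chelatase, stood at 177, 166 and 184 CPM in mock and 107, 109 and 98.3 CPM after wounding (-0.74 ± 0.07, adjusted p = 1.29e-06), and the chelatase subunit genes MpGUN5, MpCHLD and MpCHLI1/2-like fell by 1.10, 1.05 and 0.76 on the log2 scale. RBCS transcripts were not called, as given above.

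Other genes with a symbol and at least 10 CPM in mock fell by more than 3-fold. MpPRR, a pseudo-response regulator of the circadian clock, stood at 299.8, 310.0 and 314 CPM in mock libraries 1, 2 and 3 and 84.6, 89.2 and 90.7 CPM in wounded libraries 1, 2 and 3 (-1.80 ± 0.08, adjusted p = 1.49e-09). MpBBX1, a B-box factor, fell from 20.8 ± 1.33 to 5.69 ± 1.14 CPM (-1.87 ± 0.14), and the dioxygenase gene MpDOXC28 from 22.4 ± 4.54 to 6.11 ± 0.621 CPM (-1.88 ± 0.20). MpFRO2, named for a ferric reductase, fell from 30.7 ± 3.24 to 8.78 ± 0.693 CPM (-1.80 ± 0.13). At the abundant end, MpGRP7, a glycine-rich RNA-binding protein, stood at 1870.0, 1989 and 1865 CPM in mock and 908, 993 and 935 CPM after wounding (-1.01 ± 0.07, adjusted p = 6.81e-08). It was the only gene with a symbol among the 7 that began at 1000 CPM or more and fell at least 2-fold. The actin gene MpACT1, a common reference in expression assays, stood at 1231, 1182 and 1183 CPM in mock and 1029, 985 and 1054 CPM after wounding and was 0.23 lower in log2 (adjusted p = 0.0217), a call lost without mock 1 or wounded 2 (adjusted p = 0.0694 to 0.0703).

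Many of the largest changes belong to genes without a symbol. Of the 986 genes that rose at least 4-fold, Mp3g04310 stood at 0.0879, 0 and 0.0625 CPM in mock and 86.8, 100.5 and 94.8 CPM after wounding (10.67 ± 0.37, adjusted p = 2.49e-10). The mock level of Mp3g04310 rests on 4 counts in all, so the size of its rise is less certain than its SE. Mp5g24330 (33.04 ± 2.21 to 3.80 ± 0.217 CPM, -3.12 ± 0.30) and Mp1g07670 (27.4 ± 3.86 to 3.51 ± 1.12 CPM, -2.95 ± 0.26) were the next steepest falls from at least 10 CPM, after Mp7g05640 and MpCYP78-like1. Strong rises also lay side by side. With tested genes in the order of the reference annotation, 39 runs of 3 or more neighbours all rose at least 4-fold and held 151 of the 924 such genes that the annotation lists. Over all genes tested 7.18% rose at least 4-fold, and how many runs a random order would give was not computed. The longest was a run of 7 genes without symbols on chromosome 5, from Mp5g07480 to Mp5g07550. Neighbours of a family can be close copies, among which reads may be shared or discarded, so these runs describe counts and their members are not independent. Genes at the ends of these runs are named for their place.

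The response of Tak-1 was compared with that of the mutant by a test of the difference itself. Of 13726 genes, 451 (3.29%) differed, 356 with a lower log2 fold change in the mutant (2.59%) and 95 with a higher one (0.692%). The 451 became 296 without mock library 1 of Tak-1 and 290 without its mock library 3, and DESeq2 gave 805. Of the 179 genes named here that were called in Tak-1, 34 were among them, all with a smaller change in the mutant. They were chosen for their change in Tak-1, so nothing is drawn from that direction. MpERF7 rose by 2.90 in Tak-1 and 1.28 in the mutant (difference -1.62, adjusted p = 0.00443). MpGH3A rose by 3.41 and 2.14 (difference -1.27, adjusted p = 0.0023) and MpDAHP by 2.44 and 1.30 (difference -1.14, adjusted p = 0.00141). MpLOX10 (2.44 and 2.31, adjusted p = 0.844) and MpCYP815A1 (6.53 and 6.59, adjusted p = 0.968) did not pass this test, which does not show that they respond alike.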

How the data were processed

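RNA was sequenced from 12 libraries, 3 in each group. The authors deposited raw gene counts, 1 column per library, and the submitters' processing notes list Trim Galore, HISAT2, HTSeq and edgeR. Versions, genome build, annotation and strandedness were not given in the sources used here. The same header stands over 2 wounded mutant columns, which were used as group members without a number. Names and gene order come from a reference gene table (assembly MpTak2_v7.1), which 17641 of 20574 IDs matched; no sequence or genome was used.

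Counts were fitted with edgeR 4.0.16 in R 4.3.3: filterByExpr by group, TMM, 1 mean per group and a quasi-likelihood model over all 12 libraries, with 8 residual degrees of freedom and a prior worth 4.46. A gene was called at a two-sided Benjamini-Hochberg adjusted p under 0.05. Adjusted p-values are edgeR's. CPM are over TMM-scaled totals of tested genes, given as mean ± SD (n = 3), and fold changes as log2 ± SE, the SE being the absolute change over the square root of F. For genes with few counts in a group this SE can be too small, and it does not measure how well their size of change is known. A floor of 3 counts was 0.0937 to 0.143 CPM in a Tak-1 library, and intervals and floors cover counting error only. DESeq2 1.42.0 was an alternative. The fit was tested on simulated data: of 50 genes each, 40 raised 2-fold, 48 raised 4-fold, 38 lowered to 0.5-fold and 44 lowered to 0.25-fold were recovered, with 11 false calls among 13726 genes. Only these genes were changed, as many raised as lowered, with the spread taken from the fit. In the data 54.9% of genes were called and large changes were mostly rises, so the simulation does not test the scaling in that setting. The labels do not say whether replicate numbers pair the libraries, and the fit took them as unpaired.

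Lists were defined by symbol stems. Named genes were called, did not overlap between groups and had a group mean of at least 10 CPM. Of these, the text draws on the 12 largest rises and falls with a symbol, the 2 largest in each class of level, the 4 largest of a list, the 10 largest gains and losses of CPM, and the 3 largest rises and falls without a symbol. Not every gene that met these rules is described. All members of the oxylipin, signalling and desaturase lists and all markers were added, and other genes are said to be named after their values were seen. The signalling list held only MpJAZ, MpCOI1, MpNINJA and MpTPL. The stem MYC had been planned for it but was not searched. Members and lists were chosen with earlier results of these data known.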

Additional observations from a re-analysis of the deposited data

Results flagged for a closer look

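The wound response of a gene in the mutant minus that in Tak-1 was tested as a difference of log2 fold changes, and 35 genes named in the text passed at an adjusted p under 0.05 (edgeR). Each value in parentheses is that difference, and n is 3 libraries in each of the 4 groups. Among oxylipin, desaturase and signalling genes, the difference was called for MpLOX4 (-1.57), MpCYP74N2 (-0.96), MpLOX2 (-0.92), MpJAZ (-0.74), MpFAD11 (-0.73) and MpFAD5 (-0.49). The protocol name of the mutant, Mpdes6fad5, includes FAD5, and whether MpFAD5 is itself mutated was not tested. In mock, MpFAD5 stood at 295, 343 and 300 CPM in the mutant and 234, 202 and 247 CPM in Tak-1. MpFAD11 stood at 164, 193 and 183 CPM in the mutant and 507, 499 and 569 CPM in Tak-1. Among transcription factors and kinases, the difference was called for MpERF7 (-1.62), MpMAPKKK10 (-1.37), MpBHLH2 (-1.33), MpC2H2-13 (-1.25), MpC1HDZ (-0.73), Mp1R-MYB16 (-0.73) and MpBZIP6 (-0.49). Among enzymes of phenolic compounds, the difference was called for MpDAHP (-1.14), MpPPO22 (-0.999), Mp4CL2 (-0.89) and MpDIR17 (-0.81). Among isoprenoid and lipid genes, the difference was called for MpMTPSL-like (-1.49), MpFTPSL2 (-1.22), MpMGDG (-0.79), MpGPAT6b (-0.77) and MpSQS1 (-0.68). Among the other genes that rose in Tak-1, it was called for MpGST38 (-2.98), MpCYP94-like (-1.62), MpGST29 (-1.29), MpGH3A (-1.27), MpPIN3 (-1.24), MpEXL5 (-1.13), MpGST30 (-1.13), MpHSP90-1 (-0.54) and MpNOP1 (-0.40). All of these had a smaller log2 fold change in the mutant than in Tak-1. Genes that fell in Tak-1, with a less negative or a positive log2 fold change in the mutant, were MpPKS/CHS-like1 (0.64), MpFRO2 (0.90) and MpGPAT6c (0.56). MpLOX14, not called in Tak-1, had a difference of -0.997, with a log2 fold change of -0.22 in Tak-1 and -1.22 in the mutant. Adjusted p-values ran from 0.000877 to 0.0429. Leaving out Tak-1 mock library 3 lowered the number of called differences over all genes from 451 to 290.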

How the results depend on the processing

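Of 2490 values of the genes named, taken over 13 alternative fits, 2405 kept both direction and call, 11 gained a call and 73 lost one. The 1 reversal was MpCBL-A, at -0.0103 under upper-quartile scaling (adjusted p = 0.888). Upper-quartile scaling also changed these counts: 5504 genes lower, 979 of them at least 2-fold; by starting level 829 lower at 1 to 10 CPM, 3392 lower at 10 to 100, 370 higher at 100 to 1000 and 2 higher at 1000 CPM and over; by log2 size 1368 higher and 4525 lower under 1, 855 lower at 1 to 2 and 9 lower at 4 and over. The share of rises among called genes was 36.2% there and 54.5% under TMM.

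A filter of at least 10 CPM in 3 libraries, which removes genes of low level by construction, left 9777 genes. It gave 1295 genes higher and 309 lower by at least 2-fold, 61 higher and 0 lower under 1 CPM, 422 higher and 35 lower at 1 to 10 CPM, and by log2 size 288 lower at 1 to 2, 386 higher and 21 lower at 2 to 4, and 138 higher and 0 lower at 4 and over. With no low-count filter 24 genes were lower by a log2 of 4 or more and 4 were higher at 1000 CPM and over. With only the 6 Tak-1 libraries, 33 were lower under 1 CPM, 4 higher at 1000 CPM and over, and 2 lower by a log2 of 4 or more. Levels from the 6 Tak-1 libraries gave 314 higher and 100 lower under 1 CPM, 966 higher and 684 lower at 100 to 1000, and 21 higher at 1000 CPM and over. DESeq2 called 7712 genes and 805 differences between genotypes. Where no cause is given, the cause was not tested.

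The replicate number as a block, in the 6 Tak-1 libraries, called 6453 genes, 6334 of them called in the main result, against 7050 without the block. Under the block 22 genes were lower under 1 CPM, 3 higher at 1000 CPM and over, and 2 lower by a log2 of 4 or more. Deviations of same-numbered mock and wounded libraries correlated at -0.113, -0.0322 and -0.0876. These values gave no sign of pairing but cannot exclude it with 3 libraries a group, and the labels do not say whether the numbers pair.

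Leaving out 1 Tak-1 library in turn gave 6675 to 7217 called genes, 3685 to 4013 higher and 2990 to 3298 lower, 290 to 450 differences between genotypes, 4 to 9 genes higher at 1000 CPM and over, and 4 to 16 lower by a log2 of 4 or more. Levels per kilobase were not run, since the reference table gives no transcript length, and the difference between genotypes could not be fitted with Tak-1 alone. Depth limits genes under 1 CPM most: their median SE was 0.52 on the log2 scale, against 0.07 at 100 to 1000 CPM. Genes with fewer than 3 counts over a group cannot be told from 0 here.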
